A study of Saccharomyces cerevisiae with 21 samples.

Results

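The COS genes are a family of related genes, some of them nearly identical, that lie close to the chromosome ends of budding yeast. Counts for 10 of its members, COS1 to COS8, COS10 and COS12, were taken out of the 6692 genes in the deposited S. cerevisiae table. They were chosen by their systematic names. COS9 (YKL219W), a further gene with the family name, was left out by this choice and is described beside them. All 10 members passed the filter on low counts, and 6254 genes were tested in all. COS2 and COS4 passed only through the strains with a tagged Rap1, because in the 9 libraries without this tag their counts were too low. They are therefore described by their counts wherever a Rap1-tagged strain is set against WT, and the count of calls is also given over the other 8 members.

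The data are polyadenylated RNA-seq counts from 21 libraries, 3 biological replicates in each of 7 groups. The study asked how RSC, whose ATPase is Sth1, and Rap1 shape transcription from promoters. Cells with Sth1, Rap1 or both under degron control (STH1-AID; RAP1-AID; STH1-AID RAP1-AID) were treated in exponential growth with 500 µM indole-3-acetic acid (IAA) or with the same volume of its solvent DMSO, and WT cells were left untreated. All strains were labelled as MATa BY4741 derivatives (his3D1, leu2D0, met15D0, ura3D0) with RPB3-3xFLAG::NATMX, and were grown in YPD at 30 °C. The degron strains also carried osTIR driven by pGPD1 at LEU2, and a 3V5-IAA7 tag (KanMX) at the C-terminus of STH1, of RAP1 or of both. This auxin-inducible degron (AID) directs the tagged protein to the proteasome when IAA is added. Each genotype was represented by a single strain, WT cells received neither DMSO nor IAA, and no strain without a tag was given IAA. In DMSO-treated degron cells against WT, the tag, osTIR, the solvent and the strain therefore cannot be told apart.

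As background, Cos proteins are multi-pass membrane proteins of the endosome. They help to sort plasma membrane proteins into the multivesicular body, from which these reach the vacuole and are degraded. Rap1 binds the telomeric repeats, where its C-terminal part recruits the silencing proteins Sir3 and Sir4 and the length regulators Rif1 and Rif2, and it is also an activator of ribosomal protein and glycolytic genes. RSC is a chromatin remodeller that moves and evicts nucleosomes at promoters, and its Rsc3 and Rsc30 subunits bind CGCG-type elements.

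The members lie on 8 chromosomes, and all 10 start within 15 kb of an end. COS2 (YBR302C, II:810340-811479), COS5 (YJR161C, X:742848-743999) and COS7 (YDL248W, IV:1802-2953) lie closest, at 1705, 1752 and 1801 bases. COS12 (YGL263W, VII:2790-3932) and COS10 (YNR075W, XIV:779916-781040) lie 2789 and 3293 bases from an end. The other members lie further inwards, between 6400 and 8329 bases, namely COS8 (YHL048W, VIII:6401-7546), COS4 (YFL062W, VI:6426-7565), COS3 (YML132W, XIII:7244-8383), COS6 (YGR295C, VII:1081584-1082729) and COS1 (YNL336W, XIV:8330-9475). Coordinates are those of R64-1-1, and each gene is a single uninterrupted interval in the table. Of the 10 genes, 9 are read away from the chromosome end and COS10 is read towards it.

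The coding sequences show why raw counts have to be read with care for this family. The stretch from coding position 408 to 467 is printed for COS1 to COS8, with capitals where a base is unlike that of COS2, because it holds the most distinct versions of any ungapped 60 bases (7 among 8 genes). The sequences are those of the RefSeq reference genome, build R64.
COS1: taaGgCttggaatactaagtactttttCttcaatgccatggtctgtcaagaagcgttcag
COS2: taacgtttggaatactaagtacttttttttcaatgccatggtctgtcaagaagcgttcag
COS3: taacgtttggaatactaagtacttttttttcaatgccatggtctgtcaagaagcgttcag
COS4: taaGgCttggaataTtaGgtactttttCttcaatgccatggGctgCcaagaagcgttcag
COS5: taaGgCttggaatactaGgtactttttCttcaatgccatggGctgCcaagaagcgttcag
COS6: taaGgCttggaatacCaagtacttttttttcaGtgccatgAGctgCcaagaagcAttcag
COS7: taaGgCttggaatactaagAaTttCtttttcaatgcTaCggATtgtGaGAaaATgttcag
COS8: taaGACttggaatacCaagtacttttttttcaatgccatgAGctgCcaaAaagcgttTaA
COS2 and COS3 are the same sequence over their whole coding length (100% of 1140 aligned bases). COS1 is 96.6% identical to COS2, COS4 is 96.3% identical to COS1, and COS5 and COS7 share 95.6% of their aligned bases. COS6 and COS8 stand further out, at 90.9% with COS4 and 86.6% with COS6. COS10 and COS12 are the most diverged members, with no more than 62.4% and 59.6% identity to any other member.

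Only reads with a single place in the genome were counted, so the countable part of each gene was worked out from windows of 101 bases, the read length. In COS2 and COS3 no window (0%) occurred once in the genome, and their counts can only come from pairs that reach the flank beyond the stop codon, where 100% of the windows over 300 bases were unique. Unique windows made up 42.9% of COS5, 49.7% of COS1, 52.5% of COS7, 54.9% of COS4 and 84.9% of COS6. COS8 (99.9%), COS10 (100%) and COS12 (100%) could be counted over nearly their whole length. The count of a member thus understates its RNA by an amount that differs between members, and levels are compared between members below only with this in mind. Whether this amount is the same in every library was not tested, and the fold changes below assume that it is. The share allows for no mismatch, whereas the authors accepted alignments with fewer than 3.

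The sequences before the start codons are shown because all 10 members have the same short element there. The stretch runs from 15 bases before the first match of CGCGC (either strand) to the last marked base, with capitals for CGCGC runs, for runs of at least 7 T, and for TATAAA. COS1, COS2, COS3, COS5 and COS8 share the first of these sequences, base for base (59 bases, in COS1 at XIV:8206-8264).
COS1: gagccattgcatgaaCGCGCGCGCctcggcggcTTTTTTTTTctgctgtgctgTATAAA
COS4: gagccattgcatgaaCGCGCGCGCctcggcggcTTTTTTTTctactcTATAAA
COS6: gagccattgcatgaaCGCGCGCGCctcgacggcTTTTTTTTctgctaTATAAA
COS7: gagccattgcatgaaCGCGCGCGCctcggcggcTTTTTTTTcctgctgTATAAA
COS10: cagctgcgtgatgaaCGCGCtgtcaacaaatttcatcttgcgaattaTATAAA
COS12: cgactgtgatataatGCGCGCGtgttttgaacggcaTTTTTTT
CGCGC was present in the 250 bases before the start codon in 10 of 10 members, against 9.64% of 6663 such regions over the genome and 7.38% of 244 regions of other genes within 15 kb of a chromosome end. In COS9 it was not found. The run TTTTTTT, searched on both strands, was in 10 of 10 members, against 45.4% of all regions and 24.6% of those near the ends. TATAAA, searched on the coding strand, was in 9 of 10, against 27.2% and 32.0%. A longer pattern of the Rap1 site type was also searched. It was in 0 of 10 members, against 0.285% of all regions and 0.0% of those near the ends. Its absence does not show that Rap1 fails to bind there, and binding was not tested. Overlapping matches were counted as 1 region. COS1 to COS8 are copies of each other, so their shared elements are not separate occurrences, and a match is no proof of binding.

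S. cerevisiae counts per library lay between 20901972 and 29090954, and those of the S. pombe spike-in between 1144357 and 3486097. Normalised counts below are raw counts divided by a size factor from the spike-in, and CPM relate each count to the S. cerevisiae total of its library. MET17, the gene altered by the met15D0 allele that all strains are labelled with, had 1 to 16 counts in the 6 STH1-AID libraries and 2373 to 7502 in the other 15. The 15 include WT, so the shared label does not describe every strain at this gene. The STH1-AID strain thus differs from the others by more than its tag. This difference cannot be told apart from the tag wherever that strain is set against another. STH1 and RAP1 mRNA do not report depletion of the proteins. RAP1 had 6326 to 6758 counts in IAA-treated RAP1-AID cells, against 4290 to 4600 with DMSO and 2632 to 2998 in WT, and STH1 had 13502 to 17853 in IAA-treated STH1-AID cells, against 8394 to 10970 with DMSO and 6233 to 6963 in WT. In replicate 2 of STH1-AID RAP1-AID cells COS10 and COS12 stood above both other replicates, with DMSO and with IAA, and results that rest on it are also given without it. A count of 3 or less in a group was taken as the floor. In bulk RNA, fewer cells that express a gene and less RNA per cell cannot be told apart.

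In WT cells most COS RNA came from COS6. COS6 had 2395, 2178 and 1804 raw counts, COS8 had 455, 313 and 259, and COS7 had 421, 298 and 281. Per kilobase of gene, COS6 reached 2362 ± 490 normalised counts, COS8 370 ± 52.7 and COS7 361 ± 31.4 (SD, n = 3 each). COS6 thus stood above every other member in each library, while the ranges of COS8 and COS7 overlapped. COS5 (102 ± 19.7), COS1 (96.9 ± 41.0) and COS3 (76.1 ± 19.3) followed on the same scale with overlapping ranges (SD, n = 3 each). COS10 had 49.2 ± 6.80, COS12 33.4 ± 6.19 and COS2 12.4 ± 10.3 normalised counts per kilobase (SD, n = 3 each), with ranges that did not overlap, although those of COS10 and COS12 came within 41.3 and 40.2 of each other. COS4 was all but silent, with 0, 3 and 0 raw counts, a sum at the floor. Replicate 1 of WT held more COS1 (174 counts, against 58 and 57 in the other WT libraries) and more COS2 (29, against 6 and 4). Per kilobase of unique windows instead of gene length the order changed for COS7 (753), which then stood above COS8 (406), and COS5 (260) and COS1 (214) rose with it. COS2 and COS3 have no unique window and so no such value, and the place of COS3 and COS2 in the order is a lower limit.

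**Figure D1:**
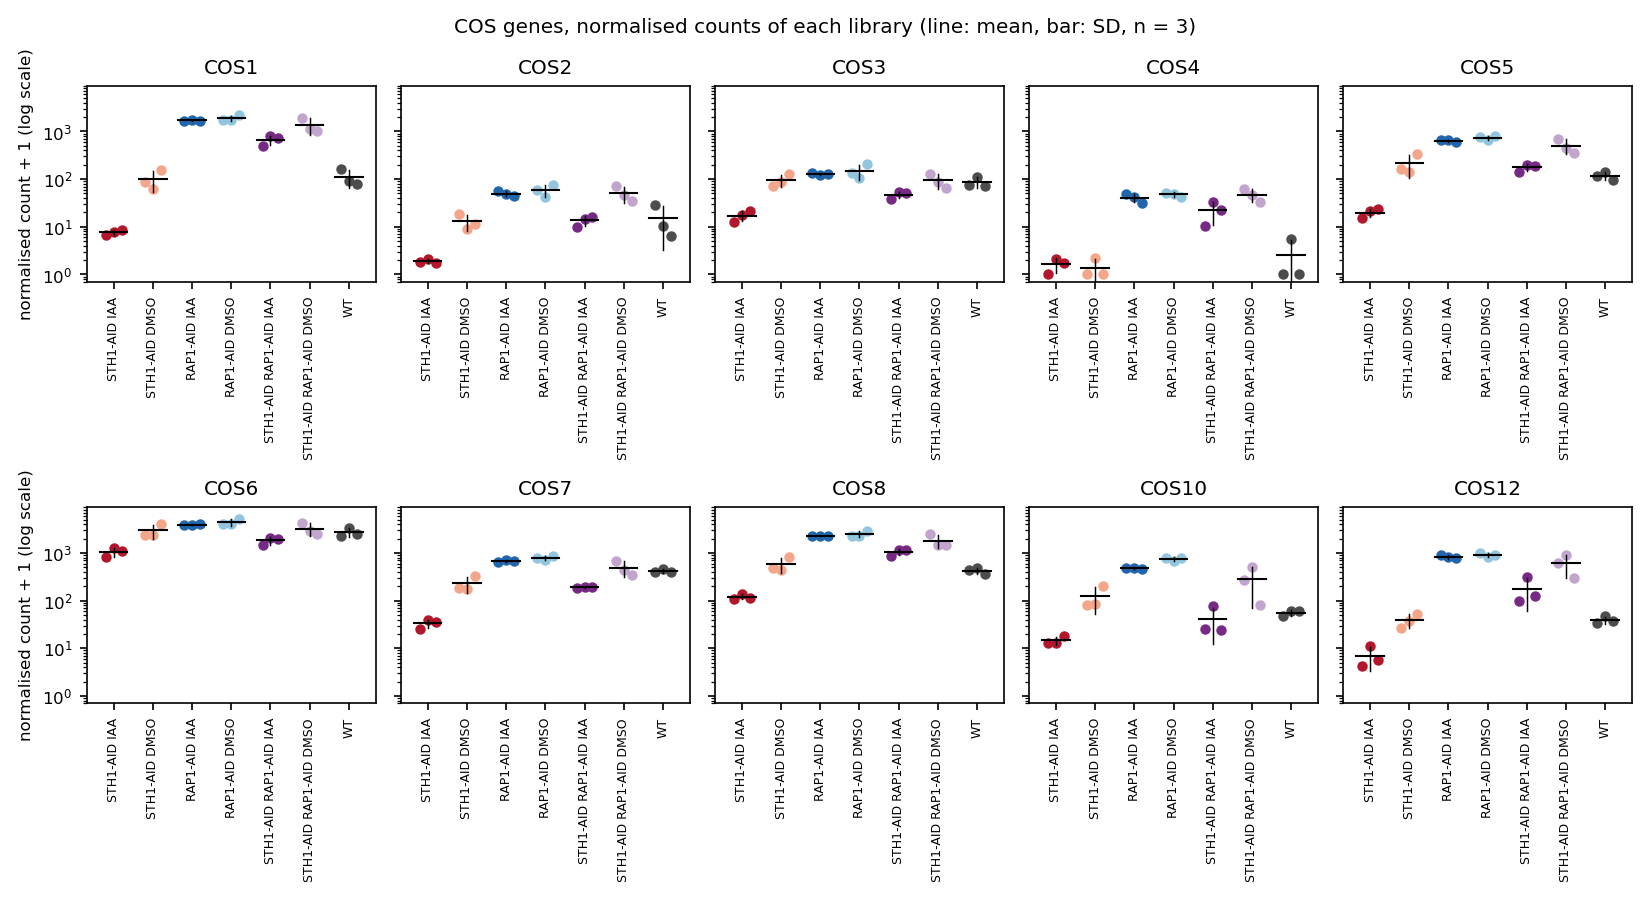
Normalised counts plus 1 of the 10 COS genes in each of the 21 libraries, on a log axis, with the mean (line) and SD (bar) of each group of 3. COS6 is at a high level in every group, COS4 is near 0 in STH1-AID and WT cells, and the points of the RAP1-tagged strains with DMSO lie above WT for COS1, COS2, COS4, COS5, COS8, COS10 and COS12.

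COS RNA was higher in cells with the Rap1 tag before any IAA was added. In DMSO-treated RAP1-AID cells 7 of 10 members were called higher than in WT (adjusted p under 0.05 by edgeR, with more than a log2 fold change of 1 in either direction), against 11.9% of all genes called higher and 0.895% called lower, and all 10 log2 fold changes were positive. Of the 8 members that passed the filter without the Rap1-tagged libraries, 5 were called higher (62.5%), against 10.9% of the 6032 genes that did so. The median log2 fold change was 2.60 over the 10 members, 2.60 over these 8 and 0.52 over all genes. The 5 were COS1, COS5, COS8, COS10 and COS12, and COS2 and COS4 made up the 7. With TMM, which scales on the S. cerevisiae counts alone, the same 7 were called, and the calls over all genes changed to 287 higher and 155 lower, against 742 and 56 with the spike-in.

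COS1 had 1525, 1440 and 1458 raw counts in DMSO-treated RAP1-AID cells, against 174, 58 and 57 in WT. COS12 had 861, 676 and 604 in DMSO-treated RAP1-AID cells, against 34, 30 and 26 in WT. COS10 had 698, 554 and 525 in DMSO-treated RAP1-AID cells, against 49, 39 and 43 in WT. For these genes every RAP1-AID library lay far above every WT library. The log2 fold change was 4.07 for COS1 (SE 0.35, edgeR adjusted p = 3.67e-29), 4.57 for COS12 (SE 0.37, edgeR adjusted p = 1.69e-31) and 3.77 for COS10 (SE 0.37, edgeR adjusted p = 4.78e-22), or 16.8-fold, 23.8-fold and 13.6-fold. The near-identical COS1 and the diverged COS12 and COS10, which are counted over their whole length, were therefore all higher.

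COS4 had 45, 39 and 28 raw counts in DMSO-treated RAP1-AID cells, against 0, 3 and 0 in WT. The ratio of the summed counts was 38.2, with an exact 95% counting interval from 12.7 to 188. COS4 was tested only because of the Rap1-tagged libraries, so no test is given. COS8 had 2012, 1878 and 1920 raw counts in DMSO-treated RAP1-AID cells, against 455, 313 and 259 in WT (log2 fold change 2.55, SE 0.32, edgeR adjusted p = 3.67e-13). COS5 had 656, 554 and 530 in DMSO-treated RAP1-AID cells, against 121, 92 and 69 in WT (2.65, SE 0.34, edgeR adjusted p = 5.54e-13). The groups did not overlap for either gene, of which COS8 is counted over nearly its whole length and COS5 over less of it. COS2 had 50, 34 and 50 raw counts in DMSO-treated RAP1-AID cells, against 29, 6 and 4 in WT, and it too was tested only because of those libraries.

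The 3 members not called were COS3, COS6 and COS7. COS6 had 3614, 3293 and 3458 raw counts in DMSO-treated RAP1-AID cells, against 2395, 2178 and 1804 in WT (0.71, SE 0.31, edgeR adjusted p = 0.0798). COS7 had 698, 582 and 584 in DMSO-treated RAP1-AID cells, against 421, 298 and 281 in WT (0.93, SE 0.31, edgeR adjusted p = 0.0209), under the fold threshold. COS3 had 116, 87 and 135 in DMSO-treated RAP1-AID cells, against 80, 73 and 52 in WT (0.76, SE 0.37, edgeR adjusted p = 0.116). The normalised counts of the groups did not overlap for COS6 and COS7 and did for COS3. COS7 passed the threshold without WT replicate 2 (1.00, edgeR adjusted p = 0.0253) or without RAP1-AID DMSO replicate 2 (1.01, edgeR adjusted p = 0.0320). COS2 and COS3 have the same coding sequence and the same bases from CGCGC to TATAAA, and the difference between their changes was not tested.

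DMSO-treated STH1-AID RAP1-AID cells gave the same 7 calls against WT, in a comparison that shares the WT libraries with the previous one. Of the 10 members 7 were called higher, against 5.21% of all genes called higher and 1.71% called lower, and 10 log2 fold changes were positive. Without COS2 and COS4 the count was 5 of 8, against 4.46% of the 6032 genes. The median was 2.10 over the 10 members, 2.10 over the 8 and 0.01 over all genes. COS1 had 1483, 1499 and 1517 raw counts in DMSO-treated STH1-AID RAP1-AID cells, against 174, 58 and 57 in WT (log2 fold change 3.60, SE 0.34, edgeR adjusted p = 1.26e-23). COS8 had 1880, 2014 and 2195 in DMSO-treated STH1-AID RAP1-AID cells, against 455, 313 and 259 in WT (2.10, SE 0.32, edgeR adjusted p = 2.96e-09). These libraries lay above all WT libraries and close to one another in raw counts. COS5 was higher by 2.11 (SE 0.33, edgeR adjusted p = 1.83e-08). COS4 had 46, 62 and 48 counts in DMSO-treated STH1-AID RAP1-AID cells, against 0, 3 and 0 in WT, a ratio of 35.2 with an exact 95% counting interval from 11.8 to 172. COS3 (0.09), COS6 (0.26) and COS7 (0.25) were not called, with edgeR adjusted p values of 0.999, 0.915 and 0.932. COS2 had 53, 61 and 49 counts in DMSO-treated STH1-AID RAP1-AID cells, against 29, 6 and 4 in WT. It was tested only because of the Rap1-tagged libraries, so no test is given. Its call was lost without WT replicate 3 or WT replicate 2, and in a fit of these 2 groups alone.

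COS10 and COS12 were uneven between the replicates of this strain. COS10 had 202, 679 and 118 raw counts in DMSO-treated STH1-AID RAP1-AID cells, against 49, 39 and 43 in WT (log2 fold change 2.36, SE 0.35, edgeR adjusted p = 2.25e-09). COS12 had 474, 1212 and 433 in DMSO-treated STH1-AID RAP1-AID cells, against 34, 30 and 26 in WT (4.0, SE 0.37, edgeR adjusted p = 6.55e-25). In each case replicate 2 stood apart, yet all 3 libraries lay above all WT libraries. Without replicate 2 of the strain the log2 fold changes were 1.63 for COS10 (edgeR adjusted p = 0.000572) and 3.59 for COS12 (edgeR adjusted p = 6.34e-19), and 7 members were still called.

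In DMSO-treated STH1-AID cells 0 of 10 members were called against WT, beside 1.04% of all genes called higher and 0.352% called lower. The unadjusted edgeR p was under 0.05 for 3 members, and DESeq2 called 0. The median was 0.04 over the members and 0.11 over all genes. COS10 had 74, 71 and 119 raw counts in DMSO-treated STH1-AID cells, against 49, 39 and 43 in WT (log2 fold change 1.13, SE 0.35, edgeR adjusted p = 0.0809), with no overlap. COS7 had 173, 148 and 194 in DMSO-treated STH1-AID cells, against 421, 298 and 281 in WT (-0.85, SE 0.32, edgeR adjusted p = 0.267), and was called lower under TMM (-1.01, edgeR adjusted p = 2.45e-05) and without STH1-AID DMSO replicate 3 (-1.20, edgeR adjusted p = 0.0339). COS10 was called higher without STH1-AID DMSO replicate 1 (1.37, edgeR adjusted p = 0.0268) or replicate 2 (1.35, edgeR adjusted p = 0.0348). COS4 had 0, 1 and 0 counts in DMSO-treated STH1-AID cells and 0, 3 and 0 in WT, both at the floor, so no fold is given.

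With IAA, COS RNA in STH1-AID cells fell. In IAA-treated STH1-AID cells 9 of 10 members were called lower than with DMSO, where 42.7% of all genes were called lower and 4.69% higher, and 9 log2 fold changes were negative. All of the 8 members that passed the filter without the Rap1-tagged libraries were called lower. The median log2 fold change was -2.77 over the members and -0.84 over all genes, and the member not called, COS4, was at the floor in both groups (0, 1 and 1 counts with IAA, against 0, 1 and 0 with DMSO). Under TMM, which moved the median of all genes by 0.89, 8 members were still called and COS6 was not (-0.61, edgeR adjusted p = 5.23e-07). Over all genes TMM called 964 lower and 964 higher, against 2671 and 293 with the spike-in.

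COS1 had 7, 6 and 10 raw counts in IAA-treated STH1-AID cells, against 80, 51 and 89 with DMSO (log2 fold change -3.86, SE 0.42, edgeR adjusted p = 1.73e-18). COS5 had 18, 18 and 29 in IAA-treated STH1-AID cells, against 150, 119 and 199 with DMSO (-3.49, SE 0.37, edgeR adjusted p = 9.21e-19). COS10 had 15, 11 and 22 in IAA-treated STH1-AID cells, against 74, 71 and 119 with DMSO (-3.12, SE 0.39, edgeR adjusted p = 4.38e-14). In all of these the IAA libraries lay below every DMSO library. COS2 had 1, 1 and 1 counts in IAA-treated STH1-AID cells, against 16, 7 and 6 with DMSO, a ratio of 0.0706 with an exact 95% counting interval from 0.0138 to 0.228. Its sum of 3 with IAA was at the floor, so fitted values of COS2 that rest on this group are no bounds.

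COS7 (31, 34 and 45 counts with IAA, against 173, 148 and 194 with DMSO) fell by 2.83 on the log2 scale (SE 0.35, edgeR adjusted p = 2.10e-14). COS12 (4, 9 and 6 counts with IAA, against 24, 31 and 30 with DMSO) fell by 2.70 (SE 0.46, edgeR adjusted p = 2.00e-08). COS3 (15, 15 and 26 counts with IAA, against 65, 74 and 73 with DMSO) fell by 2.52 (SE 0.42, edgeR adjusted p = 1.03e-08). The groups did not overlap for any of them, whether counted only from the flank (COS3) or over the whole length (COS12). COS8 (135, 124 and 150 counts with IAA, against 438, 378 and 468 with DMSO) fell by 2.25 (SE 0.32, edgeR adjusted p = 3.69e-11). COS6 kept the most RNA, with 1028, 1155 and 1405 counts with IAA, against 2255, 2040 and 2393 with DMSO, and its fall of 1.49 (SE 0.32, edgeR adjusted p = 8.54e-06) was the smallest of the 9.

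In RAP1-AID cells IAA added no called change to the high COS level. In IAA-treated RAP1-AID cells 0 of 10 members were called against DMSO, beside 4.09% of all genes called lower and 0.400% called higher. The unadjusted edgeR p was under 0.05 for 1 member, and DESeq2 called 0. All 10 log2 fold changes were negative, from -0.67 to -0.12, with a median of -0.20 over the members and -0.26 over all genes. COS1 had 1766, 1887 and 1831 raw counts in IAA-treated RAP1-AID cells, against 1525, 1440 and 1458 with DMSO (-0.15, SE 0.30, edgeR adjusted p = 0.812). COS12 had 944, 880 and 846 in IAA-treated RAP1-AID cells, against 861, 676 and 604 with DMSO (-0.12, SE 0.31, edgeR adjusted p = 0.839). COS10 had 505, 523 and 499 in IAA-treated RAP1-AID cells, against 698, 554 and 525 with DMSO (-0.67, SE 0.32, edgeR adjusted p = 0.486). The direction rested on the spike-in, because under TMM, which moved the median of all genes by 0.33, 9 of the 10 changes turned positive (0.07 to 0.21) and only COS10 stayed negative (-0.35). No member was called with either scaling, and TMM called 62 genes higher and 192 lower in all, against 25 and 256.

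In STH1-AID RAP1-AID cells, COS RNA fell with IAA from its raised level. In IAA-treated STH1-AID RAP1-AID cells 7 of 10 members (COS1, COS2, COS4, COS5, COS7, COS10 and COS12) were called lower than with DMSO, against 32.6% of all genes called lower and 3.49% called higher, and 10 log2 fold changes were negative. Of the 8 members that passed the filter without the Rap1-tagged libraries 5 were called lower (62.5%), against 33.5% of the 6032 genes that did so. The median was -1.25 over the 10 members and -0.67 over all genes. Same-numbered IAA and DMSO libraries of this strain deviated together (r from 0.68 to 0.78 over 5562 genes). With the replicate block 3 members were called, COS2, COS10 and COS12, while 508 of 6169 genes were called lower and 105 higher in all. The same 3 were called under TMM, which moved the median of all genes by 0.68 and called 541 genes higher and 411 lower in all, against 218 and 2039.

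COS10 had 40, 98 and 37 raw counts in IAA-treated STH1-AID RAP1-AID cells, against 202, 679 and 118 with DMSO (log2 fold change -2.82, SE 0.35, edgeR adjusted p = 4.95e-13). COS12 had 162, 414 and 193 in IAA-treated STH1-AID RAP1-AID cells, against 474, 1212 and 433 with DMSO (-1.78, SE 0.32, edgeR adjusted p = 4.91e-07). With IAA each replicate was lower than its same-numbered DMSO partner, and replicate 2 was the highest on both sides. The normalised counts of the groups overlapped for COS12 and did not for COS10. With the replicate block the changes were -2.68 for COS10 (edgeR adjusted p = 0.000197) and -1.82 for COS12 (edgeR adjusted p = 0.0211). Without replicate 2 the changes were -2.85 for COS10 (edgeR adjusted p = 1.15e-08) and -2.06 for COS12 (edgeR adjusted p = 4.24e-06), and 8 members were called. COS2 had 15, 18 and 24 counts in IAA-treated STH1-AID RAP1-AID cells, against 53, 61 and 49 with DMSO (-1.95, SE 0.44, edgeR adjusted p = 6.95e-05). With the replicate block its change was -1.91 (edgeR adjusted p = 0.00597).

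COS1 had 833, 1038 and 1131 raw counts in IAA-treated STH1-AID RAP1-AID cells, against 1483, 1499 and 1517 with DMSO (log2 fold change -1.03, SE 0.30, edgeR adjusted p = 0.00209). With IAA it thus kept at least 833 counts in this strain, where STH1-AID cells had at most 10. COS1 just passed the fold threshold, and was not called with the replicate block (-0.99, edgeR adjusted p = 0.212), under TMM (-0.36, edgeR adjusted p = 0.124), or without replicate 1 of the DMSO-treated (-0.68, edgeR adjusted p = 0.0628) or the IAA-treated cells (-0.86, edgeR adjusted p = 0.0335). COS5 fell by 1.51 (SE 0.32, edgeR adjusted p = 1.70e-05) and COS7 by 1.38 (SE 0.31, edgeR adjusted p = 7.14e-05). With the replicate block neither was called (COS5 -1.47, edgeR adjusted p = 0.0582, and COS7 -1.32, edgeR adjusted p = 0.0831). COS4 had 16, 42 and 35 counts in IAA-treated STH1-AID RAP1-AID cells, against 46, 62 and 48 with DMSO (-1.13, SE 0.43, edgeR adjusted p = 0.0201). Its call was lost without replicate 1 of the DMSO-treated (-0.90, edgeR adjusted p = 0.120) or the IAA-treated cells (-0.77, edgeR adjusted p = 0.198). The replicate block did not call COS4 either (-1.18, edgeR adjusted p = 0.0902). COS3 (-0.99), COS6 (-0.82) and COS8 (-0.79) stayed under the fold threshold, with edgeR adjusted p values of 0.0188, 0.0191 and 0.0204.

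**Figure D2:**
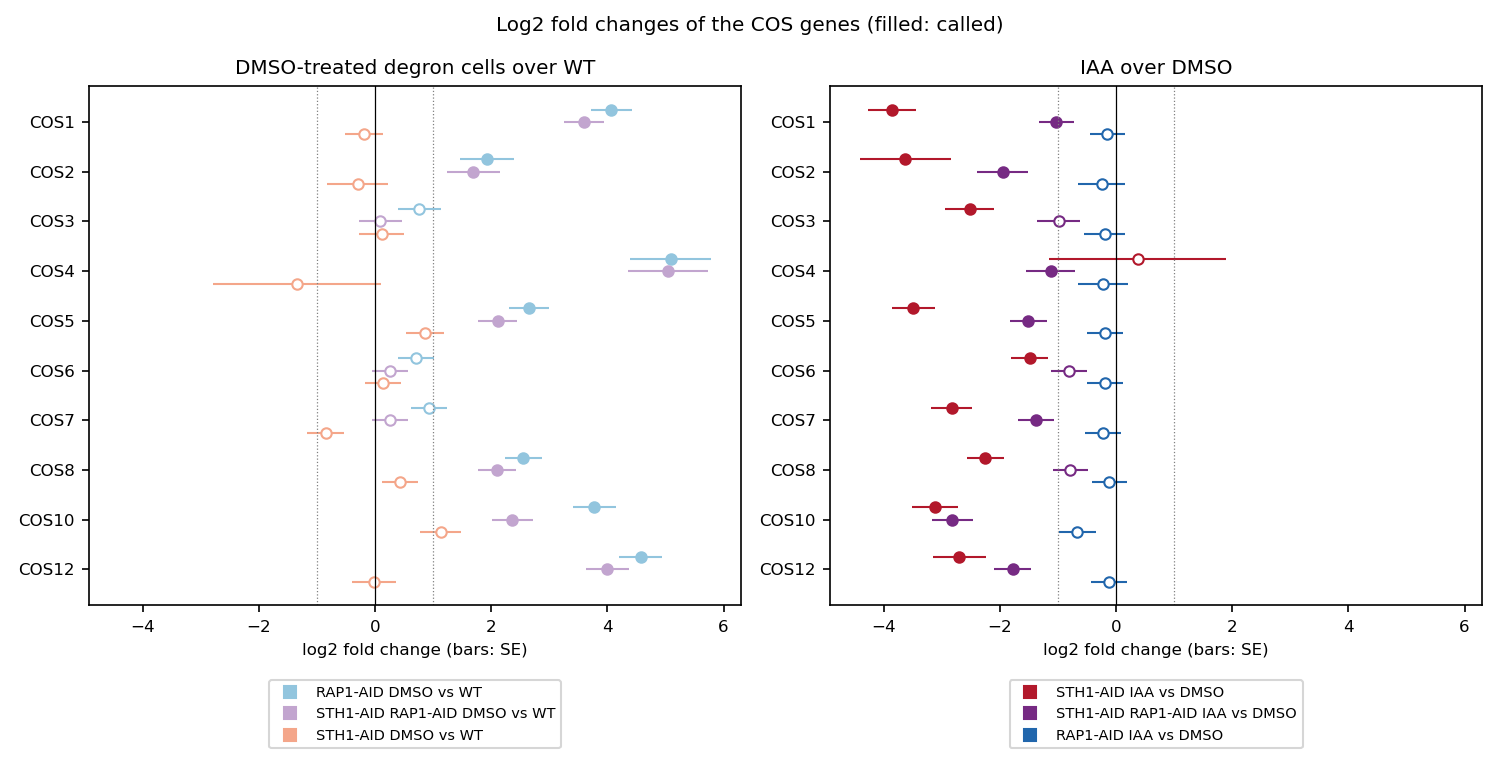
Log2 fold changes of the 10 COS genes with their SE, for DMSO-treated degron cells over WT (left) and IAA over DMSO (right), and filled points for called changes. With the Rap1 tag COS1, COS5, COS8, COS10 and COS12 lie between 2.10 and 4.57 on the left, where the points of COS4 rest on a WT group at the floor and are no bounds, and with IAA the STH1-AID points of all members but COS4 lie between -3.86 and -1.49 on the right, while those of RAP1-AID cells stay between -0.67 and -0.12.

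The effects of IAA were set against each other between strains by interaction contrasts. The effect in RAP1-AID minus that in STH1-AID cells was positive and called for 9 of 10 members, against 32.3% of all genes called higher and 6.27% called lower, with values from 1.31 for COS6 (SE 0.44, edgeR adjusted p = 0.0104) to 3.71 for COS1 (SE 0.52, edgeR adjusted p = 1.33e-10). Of the 8 members that passed the filter without the Rap1-tagged libraries, 8 were called higher, against 33.4% of the 6032 genes that did so. Both STH1-AID groups were at the floor for COS4, so no difference is given, and the value of COS2 rests on the floor of its IAA group. Under TMM 8 members were called and COS6 was not (0.75, edgeR adjusted p = 3.48e-06), while over all genes 1084 were called higher and 938 lower, against 2022 and 392 with the spike-in. With both tags the effect was lower than with the Rap1 tag alone for 4 members, against 9.79% of all genes called lower and 1.5% called higher. These were COS10 (-2.16, SE 0.47, edgeR adjusted p = 0.000703), COS2 (-1.70, SE 0.60, edgeR adjusted p = 0.0461), COS12 (-1.65, SE 0.44, edgeR adjusted p = 0.00722) and COS5 (-1.32, SE 0.44, edgeR adjusted p = 0.0341). With the replicate block 3 were called, and under TMM also 3, without COS5 in either (-1.27, edgeR adjusted p = 0.0893 with the block and -0.95, edgeR adjusted p = 0.00027 under TMM). Over all genes TMM called 369 higher and 400 lower, against 94 and 612. The replicate block called 75 higher and 186 lower among 6233 genes. In the main fit, 3 of the 8 members that passed without the Rap1-tagged libraries were called lower (37.5%), against 10.1% of the 6032 genes. DESeq2 did not call COS12 (-1.65, DESeq2 adjusted p = 0.0592). Leaving out single libraries gave between 1 and 6 such calls, with 2 in each of 8 fits. Of the 4 members only COS10 was still called without STH1-AID RAP1-AID IAA replicate 1, and COS2, COS5 and COS12 were then at edgeR adjusted p values of 0.159, 0.124 and 0.0702.

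The fall in STH1-AID RAP1-AID cells was smaller than that in STH1-AID cells for 3 members, against 1.28% of all genes called higher in this contrast. TMM called 5 members, and over all genes 185 higher and 366 lower, against 80 and 80. COS1 differed by 2.83 (SE 0.52, edgeR adjusted p = 1.73e-05), COS5 by 1.98 (SE 0.48, edgeR adjusted p = 0.00441) and COS8 by 1.46 (SE 0.44, edgeR adjusted p = 0.0361). In both strains the same-numbered libraries deviated together, and with the replicate block only COS1 was called (2.86, edgeR adjusted p = 0.00559). Among the 6213 genes of that fit 13 were called higher and 19 lower. The call of COS8 was lost in 8 of the 12 fits that left out a single library, and COS1 and COS5 were called in all 12. COS10 did not differ detectably between these strains (0.30, SE 0.50, edgeR adjusted p = 0.853).

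The summed COS RNA was a description only and was not tested. The 10 genes together held 60.0, 62.8 and 62.9 CPM in IAA-treated STH1-AID cells, against 148, 137 and 141 CPM with DMSO. They held 422, 423 and 409 CPM in IAA-treated RAP1-AID cells, against 353, 339 and 327 CPM with DMSO. In STH1-AID RAP1-AID cells they held 224, 265 and 274 CPM with IAA, against 313, 377 and 367 CPM with DMSO, and in WT 163, 130 and 121 CPM. As a share of each library, the groups with the Rap1 tag lay above WT throughout. In spike-in normalised counts, IAA-treated RAP1-AID cells (10825, 10666 and 10664) lay below DMSO-treated ones (11728, 11001 and 13979), whereas their CPM lay above. On the same scale IAA-treated STH1-AID RAP1-AID cells (3307, 4923 and 4446) overlapped WT (3566, 4739 and 3604). The make-up of the sum moved with it, and COS6 gave 83.1% of the normalised sum in IAA-treated STH1-AID cells, 36.2% in DMSO-treated RAP1-AID cells and 68.2% in WT. COS1 gave 15.4% in DMSO-treated RAP1-AID cells and 2.80% in WT. These shares take no account of the uncountable part of each gene.

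**Figure D3:**
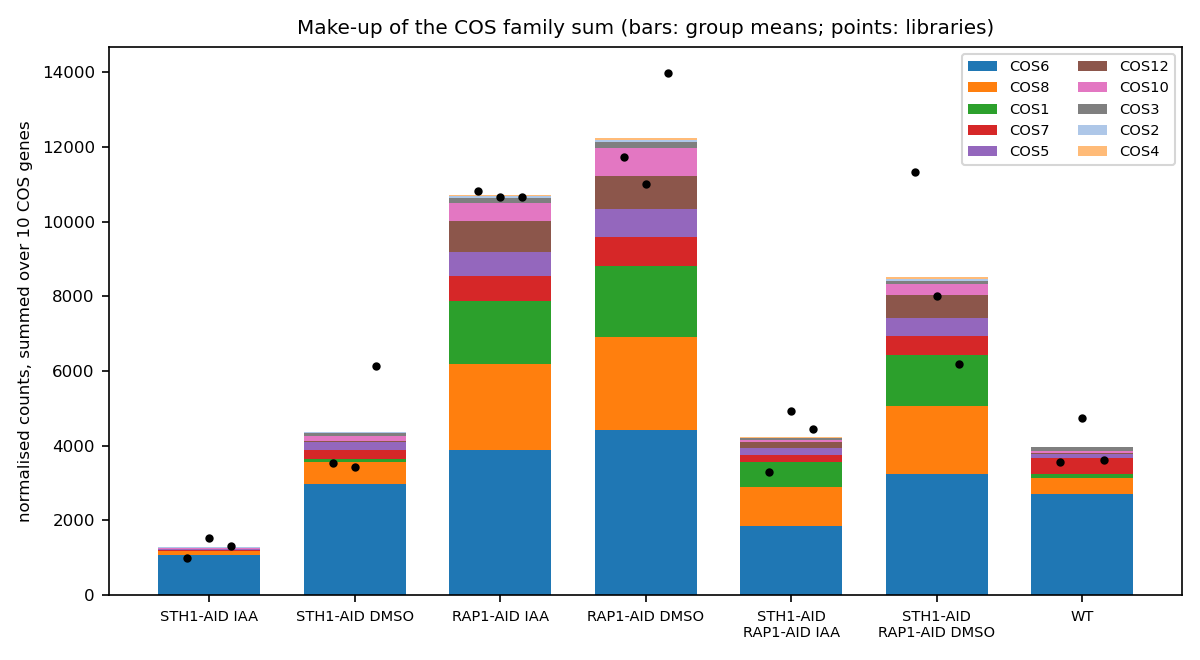
Normalised counts summed over the 10 COS genes in each group, with bars stacked by the group mean of each gene and points for the single libraries. COS6 makes up most of the bar in STH1-AID and WT cells, and COS8, COS1 and COS12 take a larger share in the strains with the Rap1 tag.

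COS genes share their surroundings with other genes near the chromosome ends, and many of these were also higher with the Rap1 tag. Of the 245 other genes within 15 kb of an end, 144 passed the filter. In DMSO-treated RAP1-AID cells 96 of them (66.7%) were called higher than in WT, against 11.9% of all genes, with a median log2 fold change of 1.94. Of the 96 that passed without the Rap1-tagged libraries 58 (60.4%) were called higher, against 10.9% of the 6032 genes, with a median of 1.45. Under TMM 73 of the 144 (50.7%) were called higher and 6 lower. Of the 96, TMM called 39 higher (40.6%, against 3.71% of the 6032 genes) and 6 lower, with a median of 0.9. With IAA in STH1-AID cells 37 of the 144 genes (25.7%) were called lower, against 42.7% of all genes, and 12 were called higher. The 144 include genes that passed only through the Rap1-tagged libraries. Of the 96 that passed without those libraries, 35 (36.5%) were called lower, against 44.1% of the 6032 genes, and 9 higher. Their median was -0.70, against -0.37 over the 144. Under TMM 9 of the 144 were called lower and 34 higher, and 7 of the 96 lower and 25 higher. The medians of the members were 2.60 in the first comparison and -2.77 in the second. Under TMM the 96 other end genes had a median of 0.21 with IAA in STH1-AID cells (0.57 over the 144), and the COS genes one of -1.90.

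Of the 17 nearest listed neighbours of the members, 12 passed the filter, and YFL063W, DDI3, YGL262W and DDI2 did so only through the Rap1-tagged libraries. Of the other 8, 6 were called higher in DMSO-treated RAP1-AID cells than in WT and 0 lower, against 10.9% of the 6032 genes. With IAA in STH1-AID cells 5 of these 8 (62.5%) were called lower, against 44.1% of the 6032 genes. Under TMM 3 of the 8 were called higher and 0 lower in the first comparison, and 2 lower and 1 higher in the second. YGL262W, which lies 1379 bases inwards of COS12, had 58 to 60 raw counts in DMSO-treated RAP1-AID cells, against 0 to 1 in WT. AIF1, a mitochondrial cell death effector 1177 bases inwards of COS10, had 854 to 968 counts in DMSO-treated RAP1-AID cells, against 220 to 329 in WT (log2 fold change 1.80, edgeR adjusted p = 5.89e-07). YML131W, 1814 bases inwards of COS3, was not called with the tag (0.17, edgeR adjusted p = 0.643), whereas YML133C on the other side of COS3 was (1.14, edgeR adjusted p = 0.0287). ARN2, a siderophore transporter 804 bases inwards of COS8, was not called either (0.26, edgeR adjusted p = 0.488), although COS8 was higher. YML131W fell with IAA in STH1-AID cells, to 263 to 391 counts, against 714 to 883 with DMSO (-1.95, edgeR adjusted p = 3.82e-09).

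**Figure D4:**
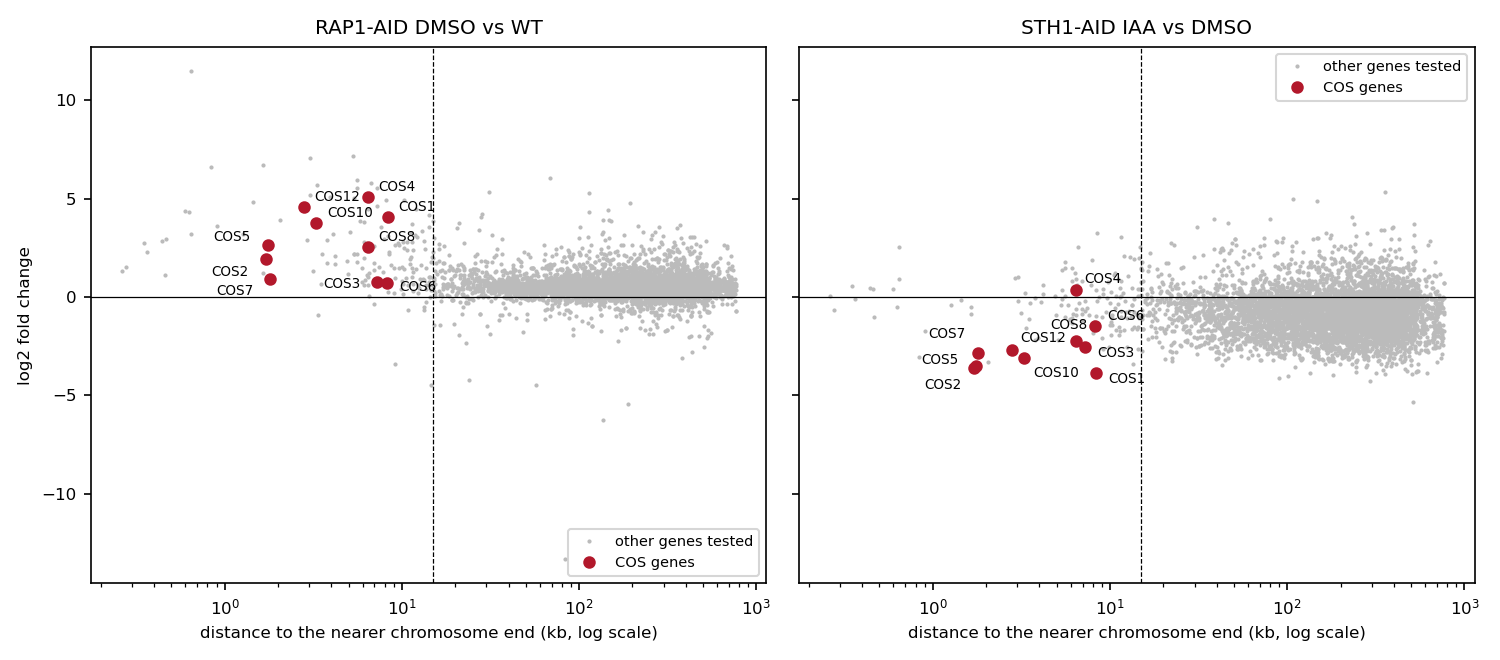
Log2 fold changes of all genes tested against the distance to the nearer chromosome end in kb (log axis, dashed line at 15 kb), for DMSO-treated RAP1-AID cells over WT (left) and IAA over DMSO in STH1-AID cells (right). Red points are the COS genes, which lie among other raised genes near the ends on the left, and on the right all but COS4 lie at or below -1.49.

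COS9, at XI:14485-15708, is 75.4% identical to COS7, its closest member, and can be counted over its whole length. COS9 had no match of CGCGC or TTTTTTT before its start codon and 1 of TATAAA, and their part in its values was not tested. It had 1656, 1478 and 1577 raw counts in DMSO-treated RAP1-AID cells, against 814, 779 and 736 in WT (log2 fold change 1.02, SE 0.30, edgeR adjusted p = 0.00860). This call was lost under TMM (0.48, edgeR adjusted p = 5.81e-05) and without WT replicate 1 (0.86, edgeR adjusted p = 0.0953) or RAP1-AID DMSO replicate 3 (0.88, edgeR adjusted p = 0.0775). With IAA in STH1-AID cells COS9 had 135, 115 and 136 counts, against 519, 472 and 592 with DMSO (-2.65, SE 0.33, edgeR adjusted p = 1.41e-14). Over the 21 libraries, the 3 other genes whose centred log2 profile was closest to that of the COS sum were ARR1, an activator of arsenic resistance genes, YGL204C and YLR456W, with root mean square differences of 0.20, 0.25 and 0.25 (median over 6244 genes 0.80). ARR1 lies 9034 bases from an end.

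DUP240 genes encode membrane proteins of another duplicated family, of which 10 were listed and all passed the filter. In DMSO-treated RAP1-AID cells 6 of 10 were called higher than in WT (all genes 11.9%) and 0 lower, with a median of 1.14 (all genes 0.52), and under TMM 2 were called. With IAA in STH1-AID cells 6 of 10 were called lower (all genes 42.7%) and 0 higher, with a median of -1.13 (all genes -0.84), and under TMM 4 were called lower and 1 higher. UIP3, whose protein is of the nuclear envelope, fell with IAA in STH1-AID cells by 1.91 (SE 0.31, edgeR adjusted p = 6.76e-09). In the strain with both tags it fell by 1.37 (SE 0.31, edgeR adjusted p = 5.14e-05). With IAA in that strain 4 of 10 DUP240 genes were called lower and 1 higher, against 32.6% and 3.49% of all genes. Under TMM 1 was called lower and 1 higher. PRM9, a pheromone-regulated member, was higher in DMSO-treated RAP1-AID cells than in WT by 1.64 (SE 0.33, edgeR adjusted p = 2.79e-05).

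The pathway in which Cos proteins act was listed by 17 genes of multivesicular body sorting. None (0 of 17) was called in DMSO-treated RAP1-AID cells against WT, with a median of 0.48 (all genes 0.52) and an unadjusted edgeR p under 0.05 for 7. TMM also called 0. With IAA in STH1-AID cells 12 of 17 (70.6%) were called lower, against 42.7% of all genes, with a median of -1.21 (all genes -0.84). Under TMM 5 of 17 (29.4%) were called lower, beside 964 of the 6254 genes. VPS28, of the ESCRT-I complex that gathers ubiquitinated cargo, fell by 2.27 (SE 0.32, edgeR adjusted p = 1.60e-11), and DID4, an ESCRT-III subunit, fell by 2.25 (SE 0.32, edgeR adjusted p = 1.65e-11). MVB12, also of ESCRT-I, fell by 2.16 (SE 0.35, edgeR adjusted p = 4.07e-09).

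Of the 8 silencing and telomere genes listed, 0 were called in DMSO-treated RAP1-AID cells against WT, with a median of 0.56 (3 had an unadjusted edgeR p under 0.05, and TMM called 0). With IAA in STH1-AID cells 5 of 8 (62.5%) were called lower, against 42.7% of all genes, with a median of -1.14 (all genes -0.84), among them RIF2 (-1.96, SE 0.34, edgeR adjusted p = 3.07e-08), RIF1 (-1.63, SE 0.32, edgeR adjusted p = 1.23e-06) and SIR3 (-1.26, SE 0.31, edgeR adjusted p = 0.000134), while COS RNA fell in the same libraries. Under TMM 1 of the 8 was called lower and 1 higher. Their part in the COS values was not tested.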

How the data were processed

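RNA-seq counts were analysed for 3 replicates in each of 7 groups. Per the labels and the study's methods, the authors trimmed reads with cutadapt 1.9.1, aligned them with BWA 0.5.9-r16, kept uniquely mapped proper pairs, and deposited raw counts per gene from featureCounts (Subread 1.5.1) on R64, with S. pombe counts from the spiked-in cells alongside.

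Raw counts were scaled by size factors from the S. pombe counts. Genes kept by edgeR's filterByExpr (6254 of 6692) were fitted with edgeR 4.0.16 (R 4.3.3) by its quasi-likelihood test over all 21 libraries, with Benjamini-Hochberg adjustment over all genes. Calls needed an adjusted p under 0.05 together with a log2 fold change beyond 1 in either direction. Comparisons share their DMSO or WT libraries. The procedure was tested on simulated counts. Intervals of count ratios are exact and cover counting error only, and a group sum of 3 counts was the floor. The coverage ranged from 20901972 to 29090954 counts per library.

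All 10 members are named. The members, gene lists and tests were chosen with earlier results of these data known. Alternatives were TMM scaling, no filter on low counts, DESeq2 1.42.0, a fit of the libraries compared alone, a replicate block, and leaving out each library. The fit without replicate 2 of STH1-AID RAP1-AID cells, and the counts over genes that passed the filter from the 9 libraries without a Rap1 tag, were chosen after seeing the data. Same-numbered IAA and DMSO libraries deviated together with the Sth1 tag (r 0.25, 0.43 and 0.46) and with both tags (0.68, 0.74 and 0.78), but not in every pair of RAP1-AID cells (0.21, 0.03 and 0.33).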

Additional observations from a re-analysis of the deposited data

Results flagged for a closer look

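The effect of IAA on COS genes differed between strains by the interaction contrasts of edgeR. Between RAP1-AID and STH1-AID cells it differed by 3.71 for COS1, 3.38 for COS2, 3.29 for COS5, 2.62 for COS7, 2.58 for COS12, 2.46 for COS10, 2.32 for COS3, 2.13 for COS8 and 1.31 for COS6 on the log2 scale, each more positive in RAP1-AID cells. COS2 passed the filter only through the Rap1-tagged strains. It had a sum of 3 counts with IAA in STH1-AID cells, at the floor, so its value is no bound. With both tags against the Rap1 tag alone it differed by -2.16 for COS10, -1.70 for COS2, -1.65 for COS12 and -1.32 for COS5. Between STH1-AID RAP1-AID and STH1-AID cells it differed by 2.83 for COS1, 1.98 for COS5 and 1.46 for COS8. The contrasts share libraries, and the STH1-AID strain also differs from the others in MET17.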

How the results depend on the processing

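No member changed direction among the called values. Members called higher and members called lower were counted apart in each comparison. Of these counts 223 stayed within 1.5 times of the values reported, which includes counts of 0 in both fits, while 19 moved. For single genes, 1247 values stayed the same, which includes values called in neither fit. A further 57 lost their call and 23 gained one, and 4 WT levels moved per kilobase of unique windows. The 7 members called lower with IAA in STH1-AID RAP1-AID cells became 3 under TMM and 3 with the replicate block, and 5 to 8 without single libraries. In DMSO-treated STH1-AID cells against WT, 1 member was called lower under TMM, and 0 to 1 were called higher and 0 to 1 lower without single libraries. The 3 members with a smaller fall in STH1-AID RAP1-AID than in STH1-AID cells became 5 under TMM, 1 in a fit of these libraries alone and 1 with the replicate block, and 2 to 5 without single libraries. The 4 members with a lower IAA effect in STH1-AID RAP1-AID than in RAP1-AID cells ranged from 1 to 6 without single libraries and were 3 with the replicate block and 3 under TMM. The members called higher against WT ranged from 7 to 8 in RAP1-AID and from 6 to 7 in STH1-AID RAP1-AID cells. Of all genes, 742 were called higher and 56 lower in DMSO-treated RAP1-AID cells against WT, and 287 and 155 under TMM. The 9 members called lower with IAA in STH1-AID cells, and the 9 that differed between RAP1-AID and STH1-AID cells, stayed 9 without any single library and became 8 under TMM in either case. COS2 and COS4 could not be fitted from STH1-AID libraries alone. The cause of these changes was not tested.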
